A study of Danio rerio with 6 samples.

Results

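The genes described here are 10 genes of mitosis and of the spindle checkpoint, chosen by name: the cyclin genes ccnb1 and ccna2, the kinase genes cdk1, plk1, aurka and aurkb, the checkpoint genes mad2l1 and bub1, cdc20, and the topoisomerase gene top2a. These genes, and the gene lists used below, were picked with earlier results of these data known. Probes of the 10 genes were found through the RefSeq accession that the array design gives each probe. Of the 10 genes, 8 had probes on the array, 20 in all, out of 28374 genes on the array. Probes without a matching symbol were counted as genes by their own identifier, so these may repeat a gene. On the array 12900 genes have a symbol, as do 9241 of the 15775 tested. No probe was assigned to bub1, a kinase of the kinetochore, or to top2a, which untangles sister DNA molecules, and they have no value here. The study measured mRNA in caudal fins of wild-type zebrafish larvae at 10 days post fertilisation. Trained larvae were swim-trained from 5 to 10 days post fertilisation in daily sessions of 3 h, and control larvae are labelled as controls without further detail. Each RNA pool came from the fins of 15 larvae, with 2 trained pools, T2 and T3, and 2 control pools, C2 and C3.

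A cell enters mitosis when cyclin B binds the kinase Cdk1 and the complex is switched on. Polo-like and Aurora kinases then build the spindle and correct the attachment of chromosomes to it, and the checkpoint protein Mad2 holds back Cdc20 until every chromosome is attached. Cdc20 next turns on the anaphase-promoting complex, a ubiquitin ligase that marks cyclin B and securin for destruction, so that the sister chromatids part. Most mRNAs of these proteins are made in the G2 and M phases, and they are widely used as markers of dividing cells, such as those of a growing fin.

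Each trained pool was hybridised together with its like-numbered control pool on 2-colour Agilent arrays. Pair 2 (T2 and C2) was measured on 4 arrays, of which 2 repeat the first 2 technically, and pair 3 (T3 and C3) on 2 arrays. In each pair the dyes were swapped between arrays. Arrays of a pair share their RNA, so the pool pair is the replicate and n = 2 for each test. The labels do not say whether pools of the same number share a clutch or a day, so p-values do not reach beyond these pools. The variance behind the limma p-values and SEs is moderated over all genes tested, with 4.14 prior degrees of freedom against 1 residual. They are thus not a measure of how far the pairs of a single gene lie apart. Between 54.3% and 81.2% of probes were well above background, depending on the array and channel. Ratios are log2 of trained over control, and levels are log2 signals of a gene's brightest probe. Levels can be set against each other between pools but not between genes. Between pools of different pairs, differences in level also include differences between arrays. Over the 15775 genes tested, the SD of the log2 ratios was 0.15 for pair 2 and 0.53 for pair 3, while the medians were 0.02 (pair 2) and 0.05 (pair 3). Trained and control signals were thus further apart in pair 3 across the whole array, and the counts of the 8 genes are set beside the share of all genes tested. Over all genes tested, ratios of pair 2 arrays correlated at 0.86 and 0.78 within a dye orientation, but at 0.083 to 0.16 between orientations. The arrays of pair 3, of opposite orientation, correlated at 0.89. Ratios on single arrays of pair 2 thus depended strongly on the dye.

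Trained and control fins were compared to ask how swim-training affects the developing fin. Of the 8 measured mitotic genes, each by its brightest probe, mad2l1, cdk1, aurka and plk1 lay 1.76-fold to 2.28-fold lower in trained than in control fins of pair 3. In pair 2 the same genes lay 1.09-fold to 1.32-fold lower. The other 2 probes of aurka were at log2 ratios of 0.29 and 0.36 in pair 3. The folds in pair 3 also depended on the processing, which here corrects outlying local backgrounds. With the backgrounds as in the files, pair 3 log2 ratios were -0.74 for cdk1, -0.62 for mad2l1, -0.48 for plk1 and -0.40 for aurka. With Agilent's processed signals they were -1.35 for cdk1, -1.37 for mad2l1, -0.99 for plk1 and -1.02 for aurka. The other measured genes, ccnb1, ccna2, aurkb and cdc20, stayed between -0.026 and 0.39 in pair 3. The limma test over both pairs called 0 of the 8 at an adjusted p under 0.05, and it called 0% of all genes tested. Without adjustment, 628 genes had a p under 0.05, with 286 lower in trained fins and 342 higher. By that measure 1 of the 8 mitotic genes, mad2l1, was lower, against 1.81% of all genes. In RNA from whole fins, fewer dividing cells and less mRNA per dividing cell cannot be told apart.

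By their brightest probes, the partner genes of mitotic entry differed from each other. The log2 level of cdk1, the kinase that drives entry into mitosis, was 9.75 in T2 and 8.83 in T3, against 9.93 in C2 and 10.02 in C3. T3 stood apart from the other 3 pools, and both trained pools lay below both control pools, with 9.29 ± 0.65 in trained and 9.98 ± 0.06 in control pools (SD, n = 2 each). The log2 ratio of cdk1 was -0.18 in pair 2 and -1.19 in pair 3, a 2.28-fold lower signal in the trained pool of pair 3, and it was below 0 on all 6 arrays. In pair 2 it was -0.30 and -0.36 with trained RNA in Cy5, but -0.026 and -0.048 with trained RNA in Cy3. Over both pairs it was -0.69 ± 0.28 (SE, limma adjusted p = 0.751).

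By their brightest probes, the cyclins did not share the pattern of cdk1. The other 5 ccnb1 probes were below 0 in both pairs, the lowest at -0.20 in pair 2 and -0.57 in pair 3. ccnb1, the cyclin that activates Cdk1 at mitosis, had a log2 level of 10.49 in T2 and 9.73 in T3, against 10.37 in C2 and 9.75 in C3. By the brightest probe of ccnb1, though not by all its probes, the pools of pair 3 were the lower ones, trained and control alike, and the groups overlapped. Its log2 ratio was 0.12 in pair 2 and -0.012 in pair 3, or 0.055 ± 0.17 over both (SE, limma adjusted p = 0.940). The sign followed the dye: the ratio of ccnb1 was -0.10 and -0.18 on the arrays of pair 2 with trained RNA in Cy5, and 0.45 and 0.32 on those with trained RNA in Cy3. ccna2, a cyclin of S phase and G2, had a log2 level of 9.74 in T2 and 9.86 in T3, against 9.85 in C2 and 9.78 in C3. All 4 pools of ccna2 lay close together, with a log2 ratio of -0.11 in pair 2 and 0.082 in pair 3 (adjusted p = 0.985 by limma over both pairs). In pair 2 its sign followed the dye. It was 0.060 and 0.046 with trained RNA in Cy5, and -0.26 and -0.29 with trained RNA in Cy3.

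By their brightest probes, the kinase genes plk1 and aurka had like values, while the other 2 aurka probes lay above 0 in pair 3. plk1 acts at centrosomes, kinetochores and the cleavage furrow. Its log2 level was 10.01 in T2 and 9.09 in T3, against 10.13 in C2 and 9.92 in C3. For plk1, T3 was the lowest pool and the other 3 lay within a narrow range, so that T2 was above C3 and the groups overlapped. The log2 ratio of plk1 was -0.12 in pair 2 and -0.82 in pair 3, below 0 on all 6 arrays, and -0.47 ± 0.23 over both (SE, limma adjusted p = 0.751). In pair 2 it was -0.033 and -0.047 with trained RNA in Cy5, and -0.23 and -0.17 with trained RNA in Cy3. aurka, the Aurora kinase of the spindle poles, had a log2 level of 9.46 in T2 and 8.53 in T3, against 9.62 in C2 and 9.35 in C3. T3 was again the lowest pool and the groups overlapped. The log2 ratio of aurka was -0.16 in pair 2 and -0.82 in pair 3, below 0 on 5 of 6 arrays, and -0.49 ± 0.22 over both (SE, limma adjusted p = 0.751).

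aurkb, the Aurora kinase of the chromosomal passenger complex, which corrects faulty attachments, hardly varied. Its log2 level was 10.24 in T2 and 10.30 in T3, against 10.32 in C2 and 10.33 in C3. The trained pools of aurkb lay below the control pools by a small margin, with a log2 ratio of -0.083 for pair 2 and -0.026 for pair 3 (adjusted p = 0.939 by limma). On the arrays of pair 2 its sign followed the dye, at -0.21 and -0.22 with trained RNA in Cy5 and at 0.052 and 0.044 with trained RNA in Cy3.

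The checkpoint gene mad2l1, whose product sequesters Cdc20 at unattached kinetochores, had the lowest ratio of the measured genes in pair 2 and over both pairs. Its log2 level was 8.64 in T2 and 8.41 in T3, against 9.04 in C2 and 9.48 in C3. Both trained pools lay below both control pools, at 8.52 ± 0.16 in trained and 9.26 ± 0.32 in control pools (SD, n = 2 each). The log2 ratio of mad2l1 was -0.40 in pair 2 and -1.08 in pair 3, which are 1.32-fold and 2.11-fold lower signals in the trained pools. It was below 0 on all 6 arrays and in both dye orientations, from -0.46 to -0.32 on the arrays of pair 2 and at -1.16 and -0.99 on those of pair 3. Over both pairs it was -0.74 ± 0.22 (SE, limma adjusted p = 0.751), and it ranked 131 among all genes by unadjusted p. With the 6 arrays taken as independent samples, which counts the same RNA several times, the limma adjusted p was 0.0466. Over the other settings with a test it lay above the threshold, with a highest value of 0.895.

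cdc20, the activator of the anaphase-promoting complex that mad2l1's product holds in check, had a log2 level of 8.32 in T2 and 7.95 in T3, against 8.48 in C2 and 7.56 in C3. Here the control pool C3 was the lowest and the groups overlapped. The log2 ratio of cdc20 was -0.16 in pair 2 and 0.39 in pair 3, or 0.12 ± 0.20 over both (SE, limma adjusted p = 0.889). Neither the ratio of cdc20 nor that of ccna2 had the same sign in both pairs.

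**Figure D1:**
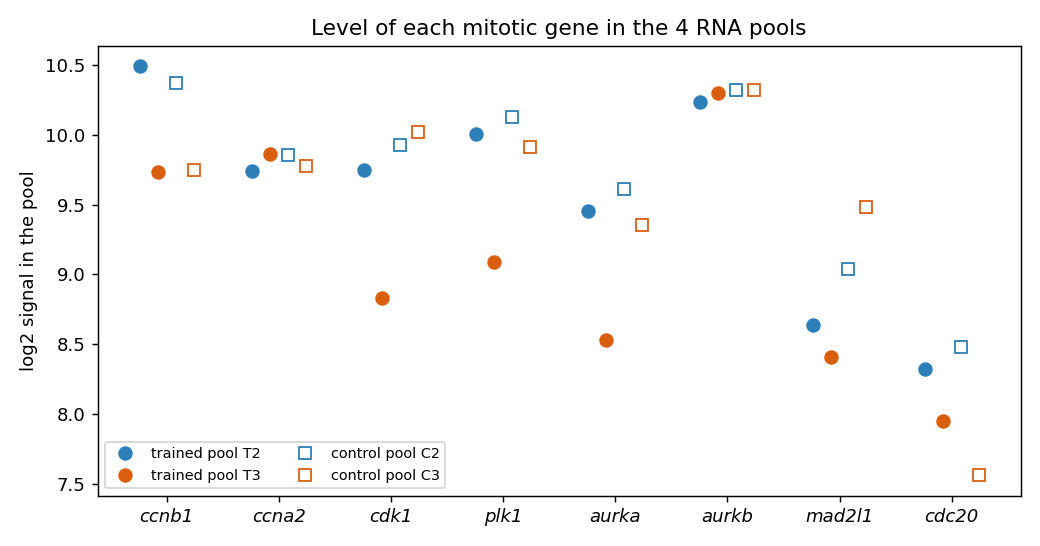
Log2 signal (y axis) of the brightest probe of each measured mitotic gene in the trained pools T2 and T3 and in the control pools C2 and C3. The 2 trained pools lie below the 2 control pools for cdk1, aurkb and mad2l1, and T3 is the lowest pool for 5 of the 8 genes. For ccnb1 it is so by a small margin, at 9.73 in T3 against 9.75 in C3.

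**Figure D2:**
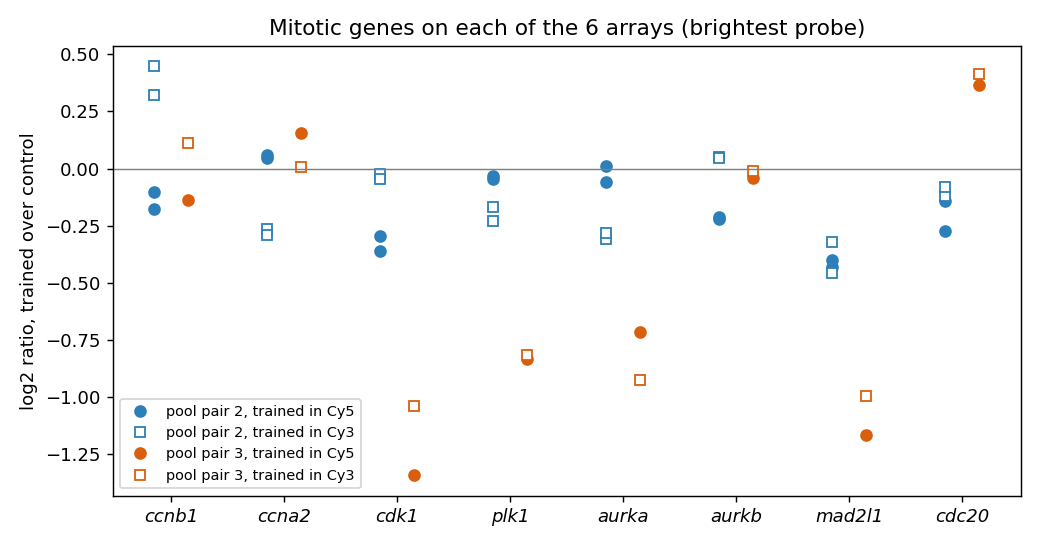
Log2 ratio of trained over control (y axis) of each measured mitotic gene on each of the 6 arrays. Colours mark pool pair 2 and pool pair 3, filled circles are arrays with trained RNA in Cy5 and open squares those with trained RNA in Cy3. cdk1, plk1 and mad2l1 are below 0 on all 6 arrays, with pair 3 further from 0 than pair 2.

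The counts that follow describe genes picked with earlier results of these data known, and they are not a test. Counted over the 8 genes, 5 had a log2 ratio below 0 in both pairs (cdk1, plk1, aurka, aurkb and mad2l1), against 24.7% of all genes tested. None of the 8 was above 0 in both pairs, against 36.6% of all genes. On all 6 arrays, 3 were below 0, against 8.37% of all genes. At least 1.5-fold lower in pair 3 were 4 of the 8, against 7.71% of all genes, and at least 1.5-fold lower in both pairs were 0 of the 8, against 0.197% of all genes. The 4 became 2, cdk1 and mad2l1, with local backgrounds as in the files, and 3 with the mean over a gene's probes. They stayed 4 with Agilent's processed signals. Both trained pools lay below both control pools for 3 of the 8, against 13.9% of all genes. T3 was the lowest of the 4 pools for 5 of the 8 (ccnb1, cdk1, plk1, aurka and mad2l1), against 29.2% of all genes. For ccnb1 the margin was small, at 9.73 in T3 against 9.75 in C3. The other 2 aurka probes had T3 as the highest pool. The median log2 ratio of the 8 genes was -0.14 in pair 2, -0.42 in pair 3 and -0.26 over both, against 0.02, 0.05 and 0.04 over all genes tested. All 8 have a gene symbol, and the 9241 tested genes with a symbol lay lower than all genes tested. Of the 9241, 29.4% were below 0 in both pairs, 2943 genes were above 0 in both, and 887 were at least 1.5-fold lower in pair 3. Their medians were 0.014 in pair 2, -0.019 in pair 3 and 0.0023 over both. With local backgrounds as in the files, the median of the 8 genes in pair 3 was -0.24, and with Agilent's processed signals it was -0.53.

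Pools of the same treatment also differed from each other. Across arrays, the median of the 8 log2 level differences was -0.57 for T3 minus T2 and -0.14 for C3 minus C2. It was -0.63 for T3 minus C2 and 0.027 for T2 minus C3. These medians were not set beside a median over all genes tested. Over all genes tested, the SD of the log2 level difference was 0.35 between T3 and T2, 0.42 between C3 and C2, 0.53 between T3 and C3 and 0.15 between T2 and C2. The SD was thus larger between the control pools C3 and C2 than between T2 and C2. Pools of different pairs were measured on different arrays, so their SDs also include differences between arrays.

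Several of the mitotic genes were measured by more than 1 probe, and the probes did not always give the same value. Of the 20 probes, 17 passed the filter, which asks that a probe be well above background on all arrays in at least one of the trained and control channels. The probe count was 6 for ccnb1, 3 for aurka, 2 each for ccna2 and cdc20, and 1 each for cdk1, plk1, aurkb and mad2l1. The brightest ccnb1 probe was the exception among its 6. The other 5 had log2 ratios from -0.20 to -0.053 in pair 2 and from -0.57 to -0.049 in pair 3, all below 0 in both pairs. The mean over the 6 ccnb1 probes was -0.077 in pair 2 and -0.22 in pair 3.

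For aurka the lower value in pair 3 belonged to the brightest probe alone, at -0.82, while the other 2 probes were at 0.29 and 0.36. Averaged over its 3 probes, the log2 ratio of aurka was -0.057 over both pairs. The 2 probes of cdc20 parted in the opposite way, at 0.39 for the brightest and -0.76 for the other in pair 3. The 2 probes of ccna2 were at 0.082 and 0.43 in pair 3. Across the array, 14.7% of the 4626 named genes with more than 1 such probe had probes over 1 log2 unit apart in pair 3, as aurka and cdc20 had, and 40.3% had probes of both signs there. Counted by probe, 11 of the 17 lay below 0 in both pairs, against 28.8% of all probes used, and 1 lay above 0 in both, against 33.1%. Of the 11, 5 were probes of ccnb1, and probes of a gene are not replicates. Over the 17 probes the median log2 ratio was -0.11 in pair 2, -0.12 in pair 3 and -0.090 over both, so the median in pair 3 was closer to 0 by probe than by gene. cdk1 and mad2l1 have 1 probe each on the array. The second probe of plk1 was too dim to pass the filter, and stood at -0.11 in pair 2 and 0.072 in pair 3.

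**Figure D3:**
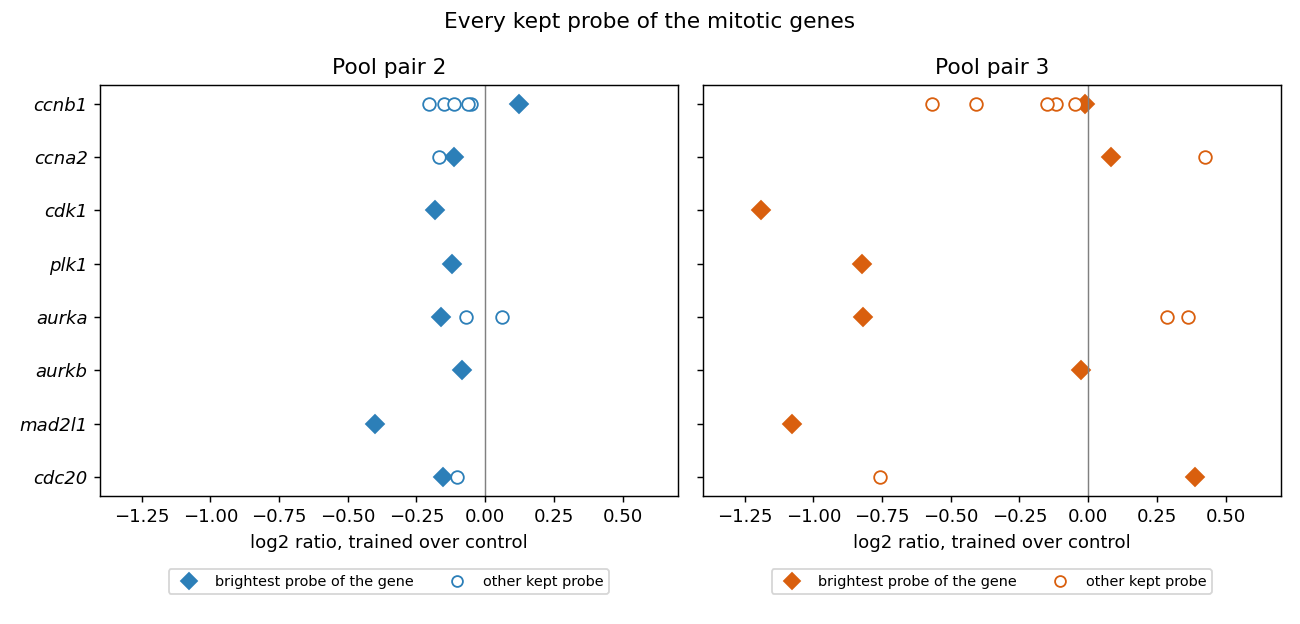
Log2 ratio of trained over control (x axis) of every usable probe of the measured mitotic genes, in pool pair 2 (left) and pool pair 3 (right). Filled diamonds are the brightest probe of a gene and open circles its other probes. In pair 3 the brightest probe and the others lie on opposite sides of 0 for aurka and cdc20.

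The median of the wider set of mitotic genes, also picked with earlier results of these data known, was below 0 as well. A list of 182 other genes of mitosis had 118 tested genes, with a median log2 ratio of -0.066 in pair 2, -0.20 in pair 3 and -0.11 over both, against 0.02, 0.05 and 0.04 over all genes. Of the 118, 61 were below 0 in both pairs, where 24.7% of all genes and 29.4% of those with a symbol were. Above 0 in both were 17, where 36.6% of all genes and 2943 of the 9241 with a symbol were. Over its 222 usable probes the medians were -0.068 (pair 2) and -0.12 (pair 3), where those of the 17 probes above were -0.11 and -0.12. The limma test called 0 of the 118. Without adjustment, 5 had a p under 0.05 in the lower direction and 1 in the higher. By that measure 1.81% of all genes were lower, and 342 of the 15775 were higher. Of the 9241 with a symbol, 201 were lower and 176 higher. The shares of 24.7% and 29.4% below 0 in both pairs also stand beside the counts of the lists that follow.

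Among the regulators of mitotic entry and exit, 10 of 18 were below 0 in both pairs, with median ratios of -0.12 for pair 2 and -0.16 for pair 3. With local backgrounds as in the files the median in pair 3 was -0.060. The lowest was cks2, which encodes a small subunit of the Cdk1 complex. Its log2 level was 8.03 in T2 and 7.57 in T3, against 8.49 in C2 and 8.95 in C3, with both trained pools below both control pools. The log2 ratio of cks2 was -0.47 in pair 2 and -1.37 in pair 3, or -0.92 ± 0.26 over both (SE, limma adjusted p = 0.751). ccnb3, another B-type cyclin, was at -0.45 ± 0.19, and arpp19b, an inhibitor of the phosphatase that opposes Cdk1, at -0.49 ± 0.21. cdc14b, a mitotic exit phosphatase, went the other way at 0.87 ± 0.33, with 0.22 in pair 2 and 1.53 in pair 3. Another of its 4 probes gave -0.17 over both pairs.

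The kinetochore and checkpoint list had 18 of 25 genes below 0 in both pairs, and 21 of 25 in each pair. Of all genes, 43.4% were below 0 in pair 2 and 44.7% in pair 3, and of those with a symbol 51.9% were in pair 3. The list had median ratios of -0.086 for pair 2 and -0.28 for pair 3. With local backgrounds as in the files its median in pair 3 was -0.10. cenpa, the histone variant that marks centromeres, was the lowest, at -0.29 in pair 2 and -0.97 in pair 3, or -0.63 ± 0.22 over both (SE, limma adjusted p = 0.751). zw10, which recruits dynein to kinetochores, was at -0.43, ndc80, the microtubule-binding subunit, at -0.35 ± 0.17, and cenpn at -0.31. These 4 genes had adjusted p-values of 0.751 by limma. The chromosomal passenger list, which holds partners of aurkb, had 2 tested genes, both below 0 in both pairs. Their median in pair 3 was -0.54, or -0.28 with local backgrounds as in the files. Of these, cdca8 was at -0.39 ± 0.17 and birc5a at -0.34.

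The anaphase-promoting complex and its partners, the machinery that cdc20 activates, had 6 of 15 genes below 0 in both pairs, with median ratios of -0.044 for pair 2 and -0.090 for pair 3. The genes with the smallest unadjusted p were anapc1 at -0.41 ± 0.24, anapc16 at -0.34, ube2s at 0.29 and ube2c at -0.20. The subunit anapc1 took its value from pair 3, while ube2s and ube2c, both ubiquitin-conjugating enzymes of the complex, had opposite signs. Another probe of ube2s was near 0, at 0.016 over both pairs. No gene of this list passed the limma test.

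Among genes of spindle assembly and motors, 14 of 26 were below 0 in both pairs, with median ratios of -0.064 for pair 2 and -0.25 for pair 3. The kinesin genes kifc1 and kif11 were at -0.60 ± 0.22 and -0.48 ± 0.20, and nusap1, a microtubule-binding protein, was at -0.54 ± 0.21. aspm, a spindle pole protein, was at 0.73 ± 0.34, with 0.045 in pair 2 and 1.41 in pair 3. The cytokinesis list also holds genes with other roles in mitosis, such as knstrn and cdca3. This list had 7 of 13 below 0 in both pairs, with median ratios of -0.032 for pair 2 and -0.11 for pair 3. In it knstrn was at -0.70 ± 0.24, cdca3 at -0.56, prc1b at -0.34 and kif4 at 0.63 ± 0.37. None of these 8 genes passed the limma test, and the high values of aspm and kif4 came from pair 3.

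The lists of centrosome duplication and of G2/M transcription had medians whose sign changed with the processing. Of 7 centrosome genes, 1 was below 0 in both pairs, with median ratios of -0.0029 for pair 2 and 0.039 for pair 3. In it plk4, the kinase that starts centriole duplication, was at -0.39, cep57 at 0.26, cep63 at -0.11 and nedd1 at -0.045. Of 15 genes for transcription in G2 and M phase, 5 were below 0 in both pairs, with median ratios of -0.044 for pair 2 and -0.098 for pair 3. nfyba, nfya and nfyc encode subunits of NF-Y, a factor of many mitotic promoters, and were at -0.65 ± 0.25, -0.36 and 0.27, while tfdp1b was at -0.34.

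Genes that act before mitosis were also compared. For G1/S and DNA replication, 33 of 42 genes were below 0 in both pairs, with a median log2 ratio of -0.17 in pair 2, -0.42 in pair 3 and -0.27 over both. With local backgrounds as in the files the median in pair 3 was -0.25. No test was made between this list and the 8 mitotic genes. pcna, the sliding clamp of DNA polymerase, was at -0.37 in pair 2 and -1.62 in pair 3. Over both pairs rpa3 was at -0.82, dut at -0.75 and rfc3 at -0.56, with 0 of the 42 called by limma. In each of these 4 genes C3 was the highest of the pools, as in pcna, whose log2 level was 7.45 in T2 and 8.22 in T3, against 7.82 in C2 and 9.85 in C3. G1 cyclins and cell cycle inhibitors had 5 of 19 below 0 in both pairs. That is 26.3%, near the 24.7% of all genes and the 29.4% of those with a symbol. Above 0 in both were 8 of the 19, where 36.6% of all genes were. The median ratios of this list were 0.035 for pair 2 and 0.20 for pair 3. The median of these 19 in pair 3 was 0.011 with local backgrounds as in the files, 0.038 with median centring and 0.071 with the mean over a gene's probes, and with median centring it was -0.028 over both pairs. The antiproliferative gene btg1 was at 0.50, with cdkn1bb at 0.37 and btg2 at 0.27. Other probes of these genes gave lower values over both pairs, down to 0.010 for btg1, -0.028 for cdkn1bb and 0.083 for btg2. None of the 19 was called by limma.

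**Figure D4:**
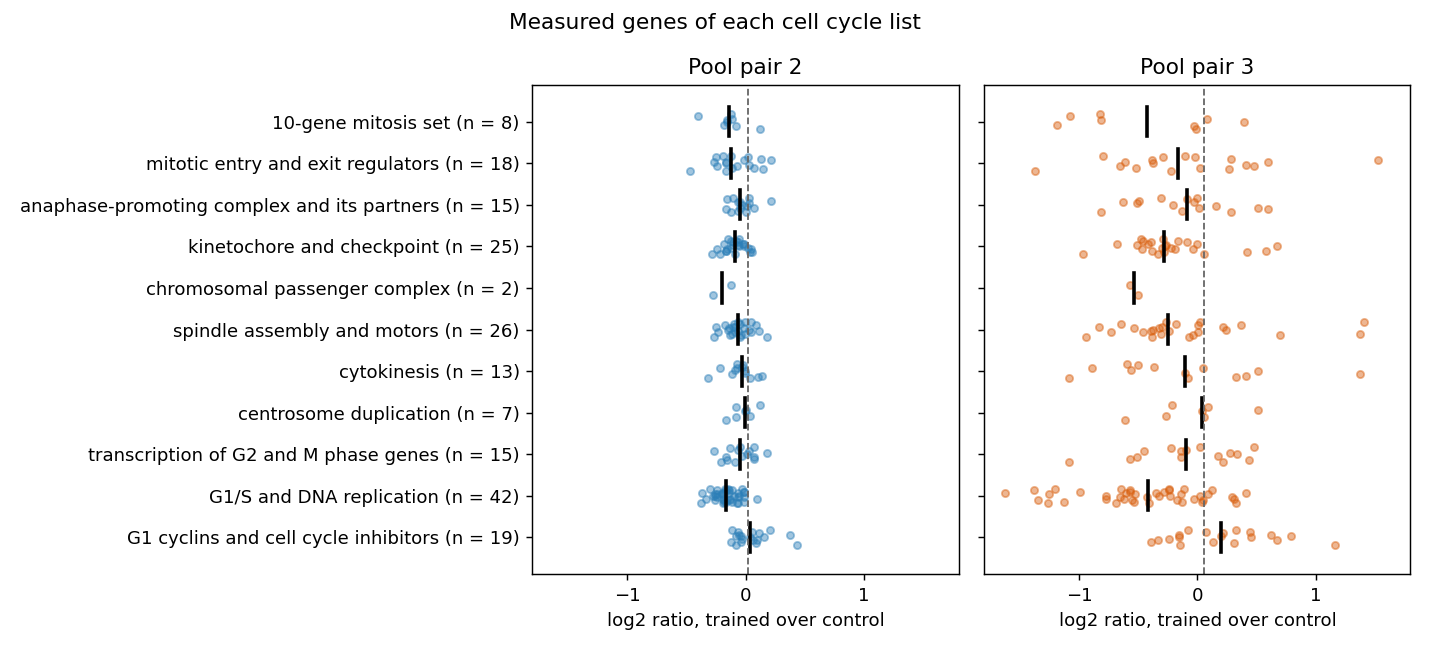
Log2 ratio of trained over control (x axis) of the tested genes of each cell cycle list and of the 8 measured mitotic genes, in pool pair 2 (left) and pool pair 3 (right). Points are genes, black bars their median, and the dashed line is the median of all genes tested. The medians of the kinetochore and the G1/S lists lie below 0 in both pairs and further from 0 in pair 3, and that of G1 cyclins and inhibitors lies above 0 here but at -0.028 over both pairs with median centring.

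The 5 named genes outside the set whose ratios over the 6 arrays came nearest to the median of the 8 mitotic genes were cmtm6, haus3, viml, serpinh2 and guk1a. Their root mean square difference from that median was 0.0455 to 0.0557 log2 units. Of these, haus3, a subunit of the augmin complex that branches spindle microtubules, is also on the list of other mitotic genes.

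Markers of other cell types also differed between the pools. Of 20 epidermal markers 18 were tested, with a median log2 ratio of 0.19 in pair 2 and 0.35 in pair 3, and their summed signal was 501293 in T2 and 532856 in T3, against 416637 in C2 and 367994 in C3. All 18 muscle markers were tested, with median ratios of 0.34 for pair 2 and -0.10 for pair 3, and sums of 765783 in T2 and 637648 in T3, against 592003 in C2 and 537326 in C3. Bright probes weigh most in such sums, which are not amounts of a tissue. In pair 3, 11 of the 18 muscle markers were below 0 although their sum was higher in T3 than in C3. Fin fold markers, which include the actinotrichia genes of the caudal fin, were tested for 16 of 18 genes, with medians of 0.029 in pair 2 and 0.13 in pair 3. Their summed signal was 92630 in T2 and 105799 in T3, against 85787 in C2 and 76239 in C3. With median centring, the medians in pair 3 were -0.020 for epidermal and -0.12 for fin fold markers.

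Red blood cell markers, with 4 of 11 tested, summed to 6137 in T2 and 2773 in T3, against 5681 in C2 and 6930 in C3, so that T3 was the lowest pool here too. The red blood cell genes hbba1 and gata1a did not pass the filter on background. Macrophage and neutrophil markers, with 5 of 10 tested and lyz and mpx not passing it, summed to 1231 in T2 and 937 in T3, against 1139 in C2 and 953 in C3. The medians of these markers were above 0, at 0.077 in pair 2 and 0.044 in pair 3, and 1 of the 5 was below 0 in pair 3. Neural markers, with 10 of 14 tested, summed to 5161 in T2 and 3408 in T3, against 5427 in C2 and 4160 in C3. Gut, liver and pancreas markers, with 5 of 14 tested, summed to 553 in T2 and 624 in T3, against 560 in C2 and 558 in C3. Of 10 germ cell markers, all on the array, 9 including ddx4 and zar1 did not pass the filter on background. The part of these cell types in the ratios of the mitotic genes was not tested.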

How the data were processed

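Per the submitters' processing notes, scans were read by the authors in Agilent Feature Extraction 10.5.1.1. Per the file headers, the deposited files hold spot and background intensity per channel and a log10 ratio. For 43553 probes the deposited value table equals that log10 ratio within 5e-10 on 5 arrays and within 0.00415 on 1, and it was used as an alternative. With R 4.3.3 and limma 3.58.1, median intensity was corrected with normexp at an offset of 50. Local backgrounds over 10 median absolute deviations out were replaced, a step chosen after the data were seen. Loess normalisation within arrays followed. Log2 ratios of the deposited intensity were given the direction trained over control, then averaged by dye orientation and by pool pair. Direction follows the dyes in the labels. The offset draws ratios of dim probes towards 0. Levels are channel signals after Aquantile normalisation.

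Of 43603 probes, 25173 were named through RefSeq accessions in the GRCz12tu table, and 24099 were kept as well above background on all arrays in at least one of the trained and control channels. The brightest kept probe stood for its gene. For 15775 genes, limma tested the mean of both pair values against 0 (two-sided, Benjamini-Hochberg adjusted). Trained and control pools of a number were hybridised together, which is the pairing. Each gene has 1 residual degree of freedom and 4.14 prior ones.

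The members and the lists were chosen with earlier results of these data known. Named are all members, up to 4 genes per cell cycle list with the smallest unadjusted p, and 5 genes of like pattern. Of the genes this rule picks, 1 is not reported here. Promoter and protein sequences were not used here, and no coordinates are given. Alternatives covered background, normalisation, filters, probe choice, arrays, slide, pairing and prior.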

Additional observations from a re-analysis of the deposited data

How the results depend on the processing

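The 8 measured mitotic genes were recomputed under 20 other settings. The sign of the log2 ratio was kept in 150 of 160 values, and mad2l1, cdk1, plk1 and aurka kept it in all 20 settings. These counts hold repeats of the main values. The other filters on dim probes, the intensity trend and robust prior, and the fit on 4 pools left all 8 ratios unchanged. With local backgrounds as in the files, aurka was at -0.28 and plk1 at -0.30 over both pairs. The median of the 8 genes ranged from -0.42 to -0.14 and that of the other mitotic genes from -0.20 to -0.066. For ccnb1 the ratio was -0.020 with Agilent's processed signals and with the deposited value table, -0.089 with median centring and -0.15 as a mean over probes. For ccna2 it was 0.057 as a mean over probes and 0.028 on slide 1 alone, and for cdc20 it was -0.16 as a mean over probes. Leaving out each pool pair gave -0.012 to 0.12 for ccnb1, -0.11 to 0.082 for ccna2 and -0.16 to 0.39 for cdc20, and 0 to 4 genes at least 1.5-fold lower, the 4 without pair 2. Under the other signal, scaling, filter and probe settings run for the lists, the medians of the entry and exit, anaphase-promoting complex, kinetochore, passenger, spindle, cytokinesis and G1/S lists stayed below 0 in both pairs. With local backgrounds as in the files, pair 3 medians were nearer 0, at -0.15 for the spindle list, -0.060 for cytokinesis and -0.017 for G2/M transcription. For G1 cyclins and inhibitors in pair 2 the median was -0.011 with Agilent's processed signals and the deposited table, -0.026 as a mean over probes and -0.0024 without technical repeats. For G2/M transcription it was 0.019 in pair 2 with median centring and 0.058 in pair 3 as a mean over probes. The median of all genes was -0.015 with median centring. Against 0 genes called by limma over the pair values, 7 were called with an intensity trend and robust prior, 9 with the 6 arrays and the pair as a random block, 3 with the slide as a term as well, and 404 with the arrays taken as independent. Of the 8 mitotic genes only mad2l1 was called, and only in that last fit. Pairing changed no call: with no replicate block, on 4 pools, 0 genes were called and mad2l1 stayed at -0.74. The cause of these differences was not tested. With 1 residual degree of freedom per gene, the number of pools limits the precision, and dim probes have ratios drawn towards 0. Promoter motifs were not run.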

Other observations

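Among the other mitotic genes, 64 of 118 had more than 1 usable probe, and 25 of these had probes on both sides of 0 in pair 3 (40.3% of all genes with several probes had), while 6 had probes over 1 log2 unit apart there. Counted by probe, 107 of 222 lay below 0 in both pairs, against 28.8% of all probes used, with median ratios of -0.068 for pair 2 and -0.12 for pair 3. Genes named above for high values were among those with unlike probes: over both pairs the 7 probes of aspm ranged from -0.14 to 0.73, and the 3 probes of kif4 from 0.0072 to 0.63. Genes named for low values had unlike probes as well. The 2 probes of prc1b were at -0.34 and 0.39, and the 2 of nfya at -0.36 and 0.33. Over both pairs the 3 probes of cdca3 ranged from -0.58 to -0.086 and the 4 of cenpa from -0.63 to -0.16. The 3 probes of cdca8 ranged from -0.83 to -0.31, so that 1 or more lay below the value given for the gene.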
